A study of Homo sapiens with 6 samples.

Results

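The TNF ligand and receptor superfamily was examined in ONS-76 cells after knockdown of KDM1A. The genes were chosen by name from the platform annotation: every probe set that names a single gene whose symbol starts with TNFSF or TNFRSF and a number, or that is one of TNF, LTA, LTB, LTBR, FAS, FASLG, CD27, CD40, CD40LG, CD70, NGFR, EDA, EDAR and EDA2R. Of 19775 named genes, 46 met this rule. Of these, 3 are noncoding antisense or divergent transcripts and are given apart, which leaves 43 genes with 90 probe sets. Each gene was represented by its brightest probe set, the one with the highest mean over the arrays. The family members TNFSF12 and TNFRSF6B share their probe sets with readthrough transcripts, and CD40LG was not analysed here.

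ONS-76 cells are a long-established line from a human medulloblastoma. The siKDM1A group holds 3 arrays from cells transfected with 10 nM of an siRNA directed against KDM1A, a histone demethylase, and the mock group 3 arrays from cells that received the transfection reagent without siRNA. Both groups come from 1 line, by independent transfections as the methods describe them, and RNA was taken after 48 h by the sample labels or 72 h by the methods. Mock cells had no siRNA, so loss of KDM1A and delivery of an siRNA cannot be told apart. The arrays were Affymetrix U133 Plus 2.0, and the deposited values are RMA-normalized log2 values, on which a difference of 1 is a doubling. They have no fixed zero and different probe sets differ in their efficiency, so levels are compared between groups for one probe set and not between genes. A gene is said to rise or fall where limma's two-sided test gave an adjusted p under 0.05 after Benjamini-Hochberg adjustment over all 54613 probe sets.

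TNF superfamily ligands are mostly trimeric proteins of the cell surface that can be shed, and their receptors carry cysteine-rich repeats outside the cell. Death receptors have a death domain inside the cell, which can recruit FADD or TRADD and lead to caspase activation or to NF-kB. Other receptors bind TRAF adaptors and signal to NF-kB and the MAP kinases, while decoy receptors bind ligand without passing on a death signal. Many members are known from lymphocytes, whereas several, among them TNFRSF12A, TNFRSF21 and NGFR, are known from tumor cells and from neural tissue.

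The labels name the siRNA target as KDM5A together with LSD1, an older name of KDM1A. KDM1A had log2 values of 6.25, 6.34 and 6.31 in siKDM1A cells, against 9.50, 9.57 and 9.49 in mock cells. It was 9.33-fold lower (adjusted p = 7.1e-07, limma), and KDM5A passed the test on 0 of its 5 probe sets (lowest adjusted p = 0.056, limma). The array medians ran from 5.09 to 5.16. The difference between the 3' and 5' probe sets of ACTB, a sign of RNA integrity, ran from 0.72 to 1.41 on the siKDM1A arrays and from 0.86 to 1.43 on the mock arrays. Of 14 measured neural and medulloblastoma markers, OTX2 was under the lower quartile on all 6 arrays, while SOX2 averaged 10.22 in siKDM1A cells and 10.66 in mock cells. Of 12 measured immune cell markers, 8, among them PTPRC and LYZ, lay below the median of every array. In either direction 0 of the 12 were called by limma, with 1 higher at an unadjusted p under 0.05 (2 by the test named in the methods).

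The TNF superfamily genes called after KDM1A knockdown all rose. By limma 39 of the 43 genes were not called, as were 18012 of the 19775 named genes, so calls in either direction were about as frequent in both. Of 43 genes 4 rose, which is 9.3%, against 3.45% of all named genes. They were TNFRSF21, TNFSF18, TNFRSF12A and TNFRSF11B, with increases between 1.50-fold and 1.80-fold. None fell by limma's test (0 of 43, against 5.46% of all named genes). At an unadjusted p under 0.05 limma had 10 higher and 4 lower, without a share over all named genes to set beside them. The median log2 fold change over the 43 genes was 0.06, against 0.01 over all named genes, and 29 values were positive and 14 negative. Over all named genes 10198 were positive and 9529 negative, and over those below the median on every array 3844 and 2139. All siKDM1A arrays lay above all mock arrays for 9 genes and below them for 4, while 13.5% of all named genes lay above without overlap and 18.1% below. Counted over all 90 probe sets, 6 rose (6.67%) and 0 fell, while of all 54613 probe sets tested 1193 rose and 2037 fell.

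The study's methods name a test in which each probe set's spread comes from its own 6 values alone. By this test 0 of the 43 genes passed after Benjamini-Hochberg adjustment, and 5 were higher and 1 lower at an unadjusted p under 0.05. For this test, and for unadjusted p throughout, no share over all named genes is given. Such counts are therefore a description and do not set these genes apart from others. The lowest adjusted value was that of TNFRSF21 (adjusted p = 0.052), followed by TNFSF18 (adjusted p = 0.068). The calls given here are therefore those of limma, which shares the spread between probe sets.

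**Figure D1:**
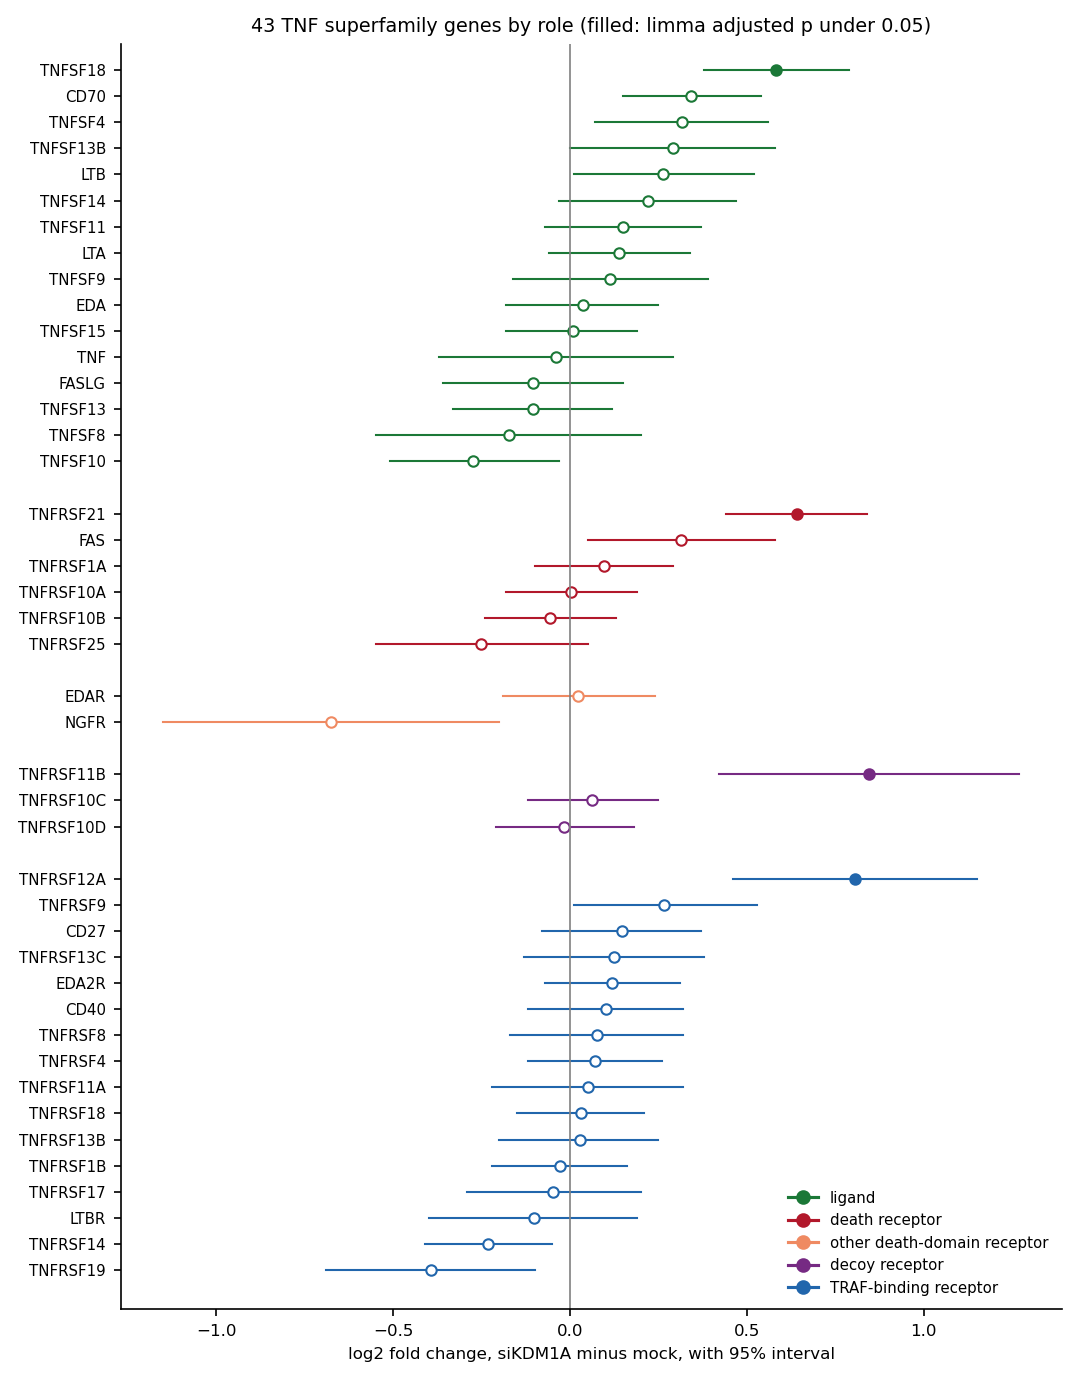
Log2 fold change (siKDM1A minus mock) of the 43 genes, 1 probe set each, grouped by role, with the 95% interval of limma's fit; filled points had an adjusted p under 0.05. The 4 filled points are on the positive side, and NGFR lies farthest to the left, at -0.68.

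Among the death receptors, TNFRSF21 rose and the other 5 did not pass the test. TNFRSF21 encodes death receptor 6, which binds the amyloid precursor protein and is known for its part in axon pruning. Its log2 values were 11.20, 11.27 and 11.40 in siKDM1A cells, against 10.71, 10.59 and 10.64 in mock cells. The 2 groups were separated by more than the range within either, and every array lay far above the upper quartile of all probe sets (7.05 to 7.16). The mean was 11.29 ± 0.10 in siKDM1A cells and 10.65 ± 0.06 in mock cells (SD, n = 3 each), 1.56-fold higher (log2 fold change 0.64, standard error 0.09, 95% interval 0.44 to 0.84, adjusted p = 0.0037, limma). Its second probe set read 9.25, 9.91 and 9.63 in siKDM1A cells, against 8.80, 8.99 and 8.93 in mock cells, again without overlap. That probe set rose by 0.69 on the log2 scale (adjusted p = 0.029, limma). The call on the brighter probe set held whichever array was left out (log2 fold change 0.59 to 0.69, adjusted p from 0.01 to 0.025 in limma).

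The sequences before the start sites of the genes whose calls did not depend on any one array are shown here with that of TNFRSF9, which was not called and holds matches to both motifs searched. They are the 250 bases before the annotated start, from RefSeq on GRCh38.p14, all on the minus strand and printed 5′ to 3′ along the gene. TNFRSF21 lies at chr6:47309906-47310155, TNFSF18 at chr1:173050942-173051191 and TNFRSF9 at chr1:7940840-7941089. Capitals mark matches to the NF-kB consensus or to the AP-1 motif TGANTCA, searched on both strands.
TNFRSF21: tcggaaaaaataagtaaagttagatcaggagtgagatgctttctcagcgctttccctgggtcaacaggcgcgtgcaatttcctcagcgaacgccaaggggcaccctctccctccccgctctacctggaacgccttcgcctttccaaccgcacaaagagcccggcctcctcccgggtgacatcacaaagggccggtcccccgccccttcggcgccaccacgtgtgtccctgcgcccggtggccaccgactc
TNFSF18: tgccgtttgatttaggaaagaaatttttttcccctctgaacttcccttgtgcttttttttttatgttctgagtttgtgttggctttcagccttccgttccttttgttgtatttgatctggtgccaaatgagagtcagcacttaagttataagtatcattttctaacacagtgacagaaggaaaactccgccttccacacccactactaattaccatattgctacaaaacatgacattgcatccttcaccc
TNFRSF9: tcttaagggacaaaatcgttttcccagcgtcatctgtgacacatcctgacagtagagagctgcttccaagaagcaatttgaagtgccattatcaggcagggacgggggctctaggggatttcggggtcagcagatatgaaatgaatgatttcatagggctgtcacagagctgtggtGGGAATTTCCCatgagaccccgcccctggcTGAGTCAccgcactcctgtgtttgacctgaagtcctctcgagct
The window of TNFRSF21 had a GC content of 62%, and that of TNFSF18 one of 38.8%, with 0 matches to either motif in both. The TNFRSF9 window held 1 AP-1 match and 2 NF-kB matches that overlap each other on opposite strands. Promoter windows were given for 28 of the 43 genes, with TNFRSF12A and CD70 not among them. Of their 38 windows, 28.9% held an NF-kB match, against 9.96% of 35116 windows of the same length, and 18.4% held an AP-1 match, against 6.57%. The 9 genes with an NF-kB match were FAS, LTA, LTB, TNFRSF14, TNFRSF19, TNFRSF9, TNFSF11, TNFSF13 and TNFSF14. None of them was called, while 3.45% of all named genes rose and 5.46% fell. With so few genes this does not bear on the motif, and the called gene TNFRSF12A had no window. A match describes the letters of the window and is not evidence of binding.

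FAS, the receptor of FAS ligand and a classical trigger of apoptosis, did not pass the test. Its log2 values were 8.82, 9.03 and 8.71 in siKDM1A cells, against 8.35, 8.66 and 8.60 in mock cells. The lowest siKDM1A array lay just above the highest mock array, so the groups did not overlap, but the spread within each was nearly as large as the difference (log2 fold change 0.31, 95% interval 0.05 to 0.58, adjusted p = 0.18, limma). All 5 FAS probe sets had positive values, from 0.22 to 0.44, and 0 of them was called.

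The TRAIL receptors stayed close to their mock levels. TNFRSF10B, which encodes death receptor 5, had 11.23, 11.22 and 11.19 in siKDM1A cells, against 11.30, 11.31 and 11.21 in mock cells. The groups overlapped at a high level, and the interval of the difference was narrow (log2 fold change -0.06, 95% interval -0.24 to 0.13, adjusted p = 0.77, limma). TNFRSF10A, the other death-inducing TRAIL receptor, lay below the median of every array, with a log2 fold change of 0.00 (95% interval -0.18 to 0.19, adjusted p = 0.99, limma).

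TNFRSF1A, the widely expressed receptor of TNF, had 9.52, 9.49 and 9.62 in siKDM1A cells, against 9.41, 9.41 and 9.52 in mock cells. The groups overlapped (log2 fold change 0.10, 95% interval -0.10 to 0.29, adjusted p = 0.62, limma). TNFRSF25, death receptor 3, had 6.94, 6.77 and 6.75 in siKDM1A cells, against 7.35, 6.82 and 7.04 in mock cells. Mock replicate a was the highest of the 6 arrays, and the difference did not pass the test (log2 fold change -0.25, 95% interval -0.55 to 0.05, adjusted p = 0.36, limma). Of its 5 probe sets 4 had negative values, and the other had 0.24, above mock without overlap (adjusted p = 0.23, limma). Leaving out probe sets that can match several genes gave -0.06 for TNFRSF25 (adjusted p = 0.78, limma), and averaging its probe sets -0.05 (adjusted p = 0.75, limma).

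Taking the 6 death receptors as a group, 1 rose (16.7%, against 3.45% of all named genes), 0 fell by limma's test (against 5.46%) and 5 were not called. Their log2 fold changes ran from -0.25 to 0.64 with a median of 0.05. At an unadjusted p under 0.05 limma had 2 higher and 0 lower, and the methods' test 1 higher and 0 lower. Of the 37 other genes 3 rose (8.11%), with a median of 0.06. Whether the 2 groups of genes differ was not tested. TNFRSF21, TNFRSF10B, TNFRSF1A and FAS lay above the upper quartile on every array, and of all named genes at that level 4.45% rose. Over the 20 death receptor probe sets, 2 rose, both of TNFRSF21.

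**Figure D2:**
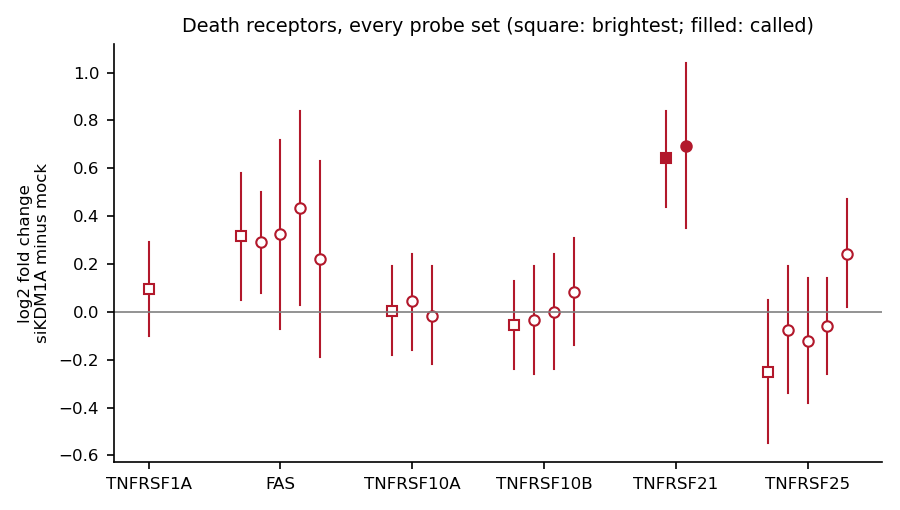
Log2 fold change (siKDM1A minus mock) with its 95% interval for every probe set of the 6 death receptors; squares mark the brightest probe set of a gene and filled symbols an adjusted p under 0.05. Both probe sets of TNFRSF21 are filled, at 0.64 and 0.69, the 5 of FAS are open between 0.22 and 0.44, and those of TNFRSF10A and TNFRSF10B lie near 0.

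NGFR and EDAR carry a death domain but are not counted among the classical death receptors. NGFR encodes the low-affinity neurotrophin receptor. It had 7.00, 6.51 and 7.40 in siKDM1A cells, against 7.96, 7.45 and 7.52 in mock cells. All siKDM1A arrays lay below all mock arrays, but replicate c came close to the lowest mock array. The log2 fold change, -0.68, was the most negative of the 43 (standard error 0.21, 95% interval -1.15 to -0.20), and it did not pass the test (adjusted p = 0.11, limma). It passed without siKDM1A replicate c (log2 fold change -0.89, adjusted p = 0.038, limma), and was -0.45 without siKDM1A replicate b and -0.52 without mock replicate a (adjusted p = 0.22 and 0.29, limma). EDAR, the receptor of ectodysplasin, had a log2 fold change of 0.02 (adjusted p = 0.94, limma).

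Among the decoy receptors, TNFRSF11B rose on both of its probe sets. It encodes osteoprotegerin, a secreted receptor that binds RANKL and TRAIL. The log2 values were 7.41, 7.56 and 6.73 in siKDM1A cells, against 6.26, 6.42 and 6.49 in mock cells. The mock arrays lay close together, whereas siKDM1A replicate c stood apart from replicates a and b and only slightly above the mock arrays. The mean was 7.23 ± 0.44 in siKDM1A cells and 6.39 ± 0.12 in mock cells (SD, n = 3 each), 1.80-fold higher (log2 fold change 0.84, 95% interval 0.42 to 1.27, adjusted p = 0.032, limma). On the second probe set the values were 6.53, 7.09 and 6.18 in siKDM1A cells, against 5.25, 5.79 and 5.77 in mock cells, an increase of 0.99 on the log2 scale (adjusted p = 0.033, limma). Replicate c was again the lowest of the siKDM1A arrays. The call on the brighter probe set depended on which arrays entered the fit. It was lost on leaving out mock replicate a, b or c (adjusted p = 0.11, 0.089 and 0.094, limma) or siKDM1A replicate a or b (0.11 and 0.088). Without siKDM1A replicate c the log2 fold change was 1.10 (adjusted p = 0.0021, limma).

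The 2 TRAIL decoy receptors were not called. TNFRSF10C, which is anchored to the membrane by a lipid, had a log2 fold change of 0.06 (95% interval -0.12 to 0.25, adjusted p = 0.76, limma). Its other 3 probe sets had -0.04, 0.15 and 0.36, the last of which lay above mock without overlap and was not called (adjusted p = 0.13, limma). TNFRSF10D, whose death domain is truncated, lay below the median of every array and had one of -0.02 (95% interval -0.21 to 0.18, adjusted p = 0.95, limma). Together with TNFRSF10A and TNFRSF10B these genes lie side by side on chromosome 8 in RefSeq, and their 4 values, from 1 probe set each, ran from -0.06 to 0.06. Without probe sets that can match several genes TNFRSF10C had 0.15 (adjusted p = 0.61, limma). The probe set that TNFRSF6B, the decoy receptor of FAS ligand, shares with a readthrough transcript had a log2 fold change of -0.07 (adjusted p = 0.80, limma).

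Of 16 receptors that signal through TRAF adaptors or comparable proteins without a death domain, 1 rose (6.25%, against 3.45% of all named genes). TNFRSF12A encodes Fn14, the receptor of the cytokine TWEAK, and is known to be induced by growth factors and in injured tissue. Its log2 values were 11.51, 11.75 and 11.30 in siKDM1A cells, against 10.40, 10.91 and 10.82 in mock cells. The groups did not overlap, and mock replicate a was the lowest of the 6 arrays. The mean was 11.52 ± 0.23 in siKDM1A cells and 10.71 ± 0.27 in mock cells (SD, n = 3 each), 1.75-fold higher (log2 fold change 0.81, standard error 0.15, 95% interval 0.46 to 1.15, adjusted p = 0.017, limma). This gene has 1 probe set. Its call was narrowly lost without mock replicate c, siKDM1A replicate a or siKDM1A replicate b (adjusted p = 0.052, 0.051 and 0.053, limma), with log2 fold changes of 0.65 to 0.92 over all 6 ways of leaving out an array. The gene of its ligand, TNFSF12, has 2 probe sets, both shared with a TNFSF12-TNFSF13 readthrough transcript, and neither was called.

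The other 15 of these receptors had log2 fold changes between -0.39 and 0.27. TNFRSF9, or 4-1BB, a costimulatory receptor of T cells, had 5.21, 5.21 and 5.28 in siKDM1A cells, against 5.04, 4.71 and 5.14 in mock cells. The siKDM1A arrays lay above the mock arrays on all 3 of its probe sets, but 0 was called (brightest, log2 fold change 0.27, adjusted p = 0.25, limma). TNFRSF19, also known as TROY and expressed in the developing nervous system, had 6.51, 6.62 and 6.43 in siKDM1A cells, against 6.63, 7.02 and 7.10 in mock cells. Here the siKDM1A arrays were the lower ones, with mock replicate a near them (log2 fold change -0.39, adjusted p = 0.13, limma). Without mock replicate a TNFRSF19 passed (log2 fold change -0.54, adjusted p = 0.032, limma). Its other 2 probe sets had values of -0.13 and 0.19. TNFRSF14, a receptor of LIGHT, had a log2 fold change of -0.23 with tight replicates and no overlap (95% interval -0.41 to -0.05, adjusted p = 0.16, limma). CD40, which lay above the upper quartile on every array, had one of 0.10 (adjusted p = 0.64, limma), and TNFRSF1B, the second receptor of TNF, lay below every array median with one of -0.03 (adjusted p = 0.90, limma).

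**Figure D3:**
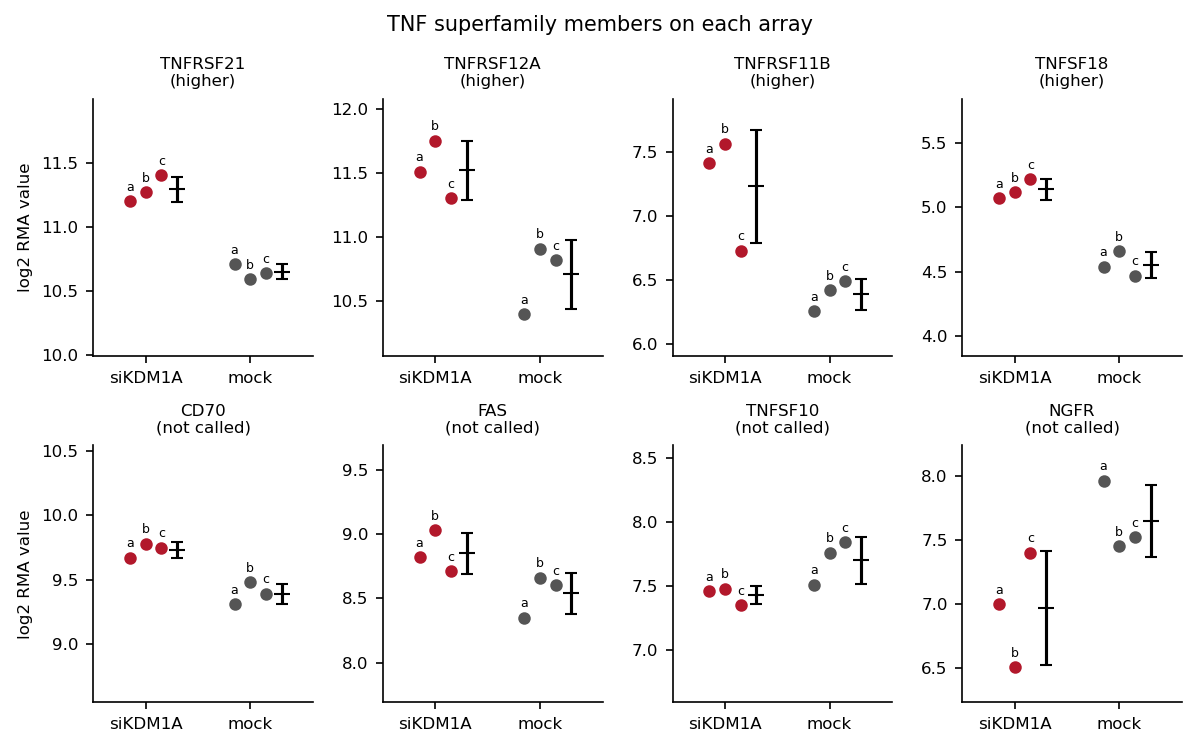
Log2 RMA values on each array (letters a, b and c) for the 4 genes that rose and for CD70, FAS, TNFSF10 and NGFR, which were not called; siKDM1A points are red and mock points grey, black marks give the mean and SD, and each panel spans 2 log2 units. TNFRSF21 and TNFSF18 show tight, separate groups, whereas siKDM1A replicate c of TNFRSF11B lies near the mock arrays.

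Of 16 ligands 1 rose (6.25%, against 3.45% of all named genes), and their log2 fold changes ran from -0.27 to 0.58 with a median of 0.13. TNFSF18 encodes the ligand of GITR, a receptor of regulatory and activated T cells. Its log2 values were 5.07, 5.12 and 5.22 in siKDM1A cells, against 4.54, 4.66 and 4.47 in mock cells. The groups were well separated, with the mock arrays below their array medians and the siKDM1A arrays near them. The mean was 5.14 ± 0.08 in siKDM1A cells and 4.55 ± 0.10 in mock cells (SD, n = 3 each), 1.50-fold higher (log2 fold change 0.58, standard error 0.09, 95% interval 0.38 to 0.79, adjusted p = 0.0067, limma). With 1 array left out the limma adjusted p ran from 0.017 to 0.044. No detection call was made for values at this level. Its receptor TNFRSF18 lay below every array median (log2 fold change 0.03, adjusted p = 0.88, limma).

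TNFSF4, the OX40 ligand, is the protein-coding neighbour of TNFSF18 on chromosome 1 in RefSeq. It had 5.15, 5.14 and 5.39 in siKDM1A cells, against 4.80, 5.07 and 4.87 in mock cells. The groups did not overlap, though siKDM1A replicate b and mock replicate b were close (log2 fold change 0.32, adjusted p = 0.15, limma). The neighbour on the other side, FASLG, lay below every array median with a log2 fold change of -0.10 (adjusted p = 0.69, limma). Its second probe set had 0.25 (adjusted p = 0.26, limma) and the mean of both had 0.07 (adjusted p = 0.72, limma), so the sign of this gene was not settled.

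CD70, the ligand of CD27, came nearest to a call among the genes that did not pass. It had 9.67, 9.78 and 9.75 in siKDM1A cells, against 9.31, 9.48 and 9.39 in mock cells. Both groups were tight and did not overlap, at a level above the upper quartile of every array (log2 fold change 0.34, standard error 0.09, 95% interval 0.15 to 0.54, adjusted p = 0.054, limma). It passed after cyclic loess normalization and under an intensity trend with a robust prior. It also passed on leaving out dim probe sets and on averaging the probe sets of each gene. Over these 4 alternatives the adjusted p ran from 0.019 to 0.027 in limma. The log2 fold change was 0.39 after cyclic loess and stayed at 0.34 in the others. CD70 has 1 probe set, so averaging left its own values unchanged. It did not pass after median centring or with the replicate letters as block (adjusted p = 0.077 and 0.072, limma), nor by the methods' test (adjusted p = 0.1). With 1 array left out it passed in none of the 6 fits (adjusted p from 0.08 to 0.18 in limma). On chromosome 19 CD70 lies between TNFSF9 and TNFSF14, which had log2 fold changes of 0.11 and 0.22 and were not called. Its receptor CD27 had one of 0.15 (adjusted p = 0.49, limma).

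The death ligands were not called. TNFSF10, which encodes TRAIL, had 7.46, 7.48 and 7.35 in siKDM1A cells, against 7.51, 7.76 and 7.84 in mock cells. The siKDM1A arrays lay below, with mock replicate a close to them (log2 fold change -0.27, 95% interval -0.51 to -0.03, adjusted p = 0.20, limma), and all 3 probe sets had negative values. TNF had 4.07, 3.91 and 4.51 in siKDM1A cells, against 4.31, 4.21 and 4.10 in mock cells. These values overlapped and lay below every array median (log2 fold change -0.04, adjusted p = 0.92, limma). LTA, lymphotoxin alpha, and TNFSF15 lay below every array median as well, with log2 fold changes of 0.14 and 0.01 (adjusted p = 0.46 and 0.98, limma). The remaining ligands ran from -0.17 to 0.29. The dimmer probe set of TNFSF13B, the B cell survival factor BAFF, had a log2 fold change of 0.60 (adjusted p = 0.062, limma).

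By level, CD40, CD70, FAS, TNFRSF10B, TNFRSF12A, TNFRSF1A, TNFRSF21 and TNFSF10 lay above the upper quartile on every array, and 13 genes lay below the median on every array. In all 13 the groups overlapped and 0 was called by limma, while of the 5998 named genes as dim 5147 overlapped and 0.867% rose. This grouping uses the siKDM1A arrays as well. TNFSF18, TNFSF4, EDA2R and CD27 are left out of it by their siKDM1A values alone, since their mock arrays all lay below the array medians. Of these, TNFSF18, TNFSF4 and EDA2R lay above mock without overlap. The overlap in all 13 is therefore partly set by the grouping and is not a result about dim members.

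Genes that act after TNF receptors included several that rose. The lists of such genes were chosen with earlier results of these data known, so their shares are a description and not a test. Of 28 measured adaptors and proximal signalling genes, 4 rose (14.3%, against 3.45% of all named genes) and 0 fell by limma's test (against 5.46%), with 9 higher and 3 lower at an unadjusted p under 0.05 and a median log2 fold change of 0.03. In alternatives added after seeing the data, the count of lower genes was 1 after median centring and under an intensity trend with a robust prior (IKBKB), and 2 without dim probe sets (IKBKB and CFLAR). IKBKB, a kinase that marks NF-kB inhibitors for breakdown, had a log2 fold change of -0.41 without overlap between the groups (adjusted p = 0.059, limma). RIPK1, TRAF2 and BIRC3 were not analysed here. TRAF1, an adaptor that is itself induced by NF-kB, had 6.95, 6.96 and 7.03 in siKDM1A cells, against 6.27, 5.99 and 6.29 in mock cells. The groups lay well apart, and TRAF1 was 1.73-fold higher (log2 fold change 0.79, adjusted p = 0.0025, limma). This is 1 of its 2 probe sets, and the mean of both gave 0.51 (adjusted p = 0.0015, limma). BIRC2, an inhibitor of apoptosis protein that ubiquitinates RIPK1, had 9.05, 9.32 and 9.01 in siKDM1A cells, against 8.29, 8.59 and 8.50 in mock cells, without overlap. It rose 1.59-fold (adjusted p = 0.011, limma). MAP3K14, the kinase NIK of the noncanonical NF-kB pathway, rose 1.49-fold (adjusted p = 0.023, limma). TRAF3, which holds NIK at a low level, rose 1.36-fold on 1 of its 2 probe sets (adjusted p = 0.044, limma). FADD and TRADD, the death domain adaptors, had log2 fold changes of 0.05 and 0.02 (adjusted p = 0.81 and 0.92, limma). CASP8 had one of 0.32 and CFLAR, its inhibitor, one of -0.29, and neither passed (adjusted p = 0.093 and 0.091, limma). BIRC2 and TRAF1 were called whichever array was left out. MAP3K14 was then called only without mock replicate a (other adjusted p from 0.051 to 0.11 in limma), and TRAF3 only without siKDM1A replicate a (others from 0.1 to 0.15).

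Of 23 measured genes of negative feedback and TNF induction, 5 rose (21.7%, against 3.45% of all named genes) and 0 fell by limma's test (against 5.46%; 11 higher and 2 lower at an unadjusted p under 0.05), with a median log2 fold change of 0.23. This list too was chosen with earlier results known, and the paper had already listed TNFAIP3 among its strongly induced genes. TNFAIP3 encodes A20, a ubiquitin-editing enzyme that restrains NF-kB. It had 8.93, 9.00 and 8.55 in siKDM1A cells, against 7.19, 7.13 and 7.32 in mock cells. Every siKDM1A array lay far above every mock array, and the gene was 3.07-fold higher (log2 fold change 1.62, 95% interval 1.34 to 1.90, adjusted p = 0.00022, limma). Both of its probe sets rose. NFKBIA and NFKBIE, inhibitors that hold NF-kB in the cytoplasm, rose 1.60-fold and 1.40-fold (adjusted p = 0.017 and 0.016, limma), NFKBIA on 1 of 2 probe sets. NFKB2 and RELB, the subunits of the noncanonical NF-kB dimer, rose 1.51-fold and 1.35-fold (adjusted p = 0.0064 and 0.043, limma), NFKB2 on 1 of 3 probe sets. The mean over probe sets gave smaller log2 fold changes, 0.28 for NFKB2 and 0.36 for NFKBIA (adjusted p = 0.044 and 0.017, limma), against 0.60 and 0.68 on the brightest. ICAM1 and VCAM1, adhesion molecules that TNF induces in endothelium, had log2 fold changes of 0.40 and 0.34 (adjusted p = 0.12 and 0.090, limma). VCAM1 lay below the median of every array. Of the 23 genes 17 had positive and 6 negative values. TNFAIP1 and TNIP2 lay below mock without overlap, with -0.24 and -0.22 (adjusted p = 0.18 and 0.17, limma). NFKB2 and TNFAIP3 were called whichever array was left out, and RELB was called in none of these fits (adjusted p from 0.051 to 0.14 in limma). NFKBIA was lost without mock replicate a or c (adjusted p = 0.061 each, limma). NFKBIE was lost without mock replicate a or c or siKDM1A replicate b (adjusted p = 0.066, 0.079 and 0.052, limma). By the methods' test after adjustment 0 of the 28 adaptors passed (9 higher and 4 lower at an unadjusted p under 0.05), and of the 23 feedback and TNF-induced genes TNFAIP3 passed alone.

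Of 8 genes that process TNF family proteins at the membrane, 1 rose (12.5%, against 3.45% of all named genes) and 0 fell by limma's test (against 5.46%). ADAM19, a metalloprotease of the cell surface, had 7.32, 7.32 and 7.48 in siKDM1A cells, against 6.76, 6.69 and 6.73 in mock cells, without overlap. It was 1.56-fold higher (adjusted p = 0.0031, limma), rose on both probe sets, and also passed the methods' test. ADAM17, the sheddase of TNF, had 8.94, 9.06 and 8.98 in siKDM1A cells, against 8.60, 8.83 and 8.78 in mock cells. These groups did not overlap but the difference did not pass (log2 fold change 0.26, adjusted p = 0.17, limma).

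**Figure D4:**
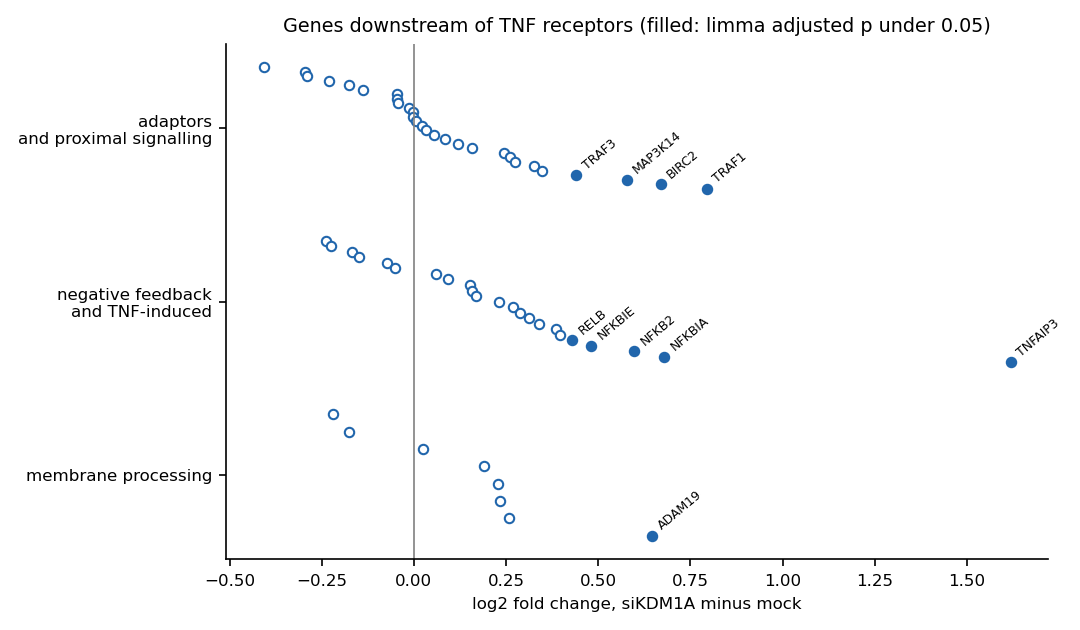
Log2 fold change (siKDM1A minus mock) of each measured gene of 3 lists, 1 probe set per gene and sorted within a list; filled, named points had a limma adjusted p under 0.05. Every filled point is on the positive side, with TNFAIP3 at 1.62, and the median of the 28 adaptors and proximal signalling genes was 0.03.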

How the data were processed

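RNA of 6 ONS-76 cultures was measured on Affymetrix U133 Plus 2.0 arrays. RMA in Partek was applied to the scans by the authors, who deposited log2 values for 54675 probe sets; versions are not given in the sources used here. RMA sets the arrays to a common distribution, so a shift of most genes would be largely removed. Groups were taken from the sample labels, with 3 arrays each. After 62 Affymetrix controls were left out, limma 3.58.1 in R 4.3.3 (lmFit and eBayes without trend) compared siKDM1A with mock over 54613 probe sets, of which 41091 name 1 gene, 1801 several and 11721 none in the platform annotation. Two-sided p-values were Benjamini-Hochberg adjusted with a threshold of 0.05. The number of arrays limits the precision.

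The members and gene lists were chosen with earlier results of these data known. Genes were named by a rule: called members, death and decoy receptors, death ligands, the brightest members and called list genes. Other named members and list genes were picked after their values were seen. Results were recomputed after centring on medians or cyclic loess, without dim probe sets, with an intensity trend and robust prior, with the letters as block, with any 1 array left out, by the methods' one-way ANOVA, with a stricter threshold, and by other rules for the probe set. The steps were tested on simulated data. All arrays held different values.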

Additional observations from a re-analysis of the deposited data

How the results depend on the processing

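The count of 4 higher TNF superfamily genes was 4 after median centring, 5 after cyclic loess (CD70 added), 3 with the replicate block (TNFRSF11B lost, adjusted p = 0.051, limma), 0 by one-way ANOVA and 2 at an adjusted p under 0.01 (TNFRSF21 and TNFSF18). With 1 array left out it ran from 2 to 4, and the count of lower genes from 0 to 1, which were TNFRSF19 without mock replicate a and NGFR without siKDM1A replicate c. The count of higher death receptors was 0 by one-way ANOVA and 1 with any array left out. The median log2 fold change of the 43 genes was 0.03 after median centring, 0.04 after cyclic loess and 0.05 to 0.08 with 1 array left out. The filter on dim probe sets removes TNFSF18. Averaging probe sets adds CD70 and TNFSF13B, 6 in all. Counting the 3 noncoding genes as members adds no call. No called value changed sign. The alternatives for the pathway genes and TNFRSF19 were chosen after seeing the data.

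The replicate letters were not taken to pair the arrays, since they are not described as a shared day. The deviations of same-lettered arrays from their group means correlated at 0.11, 0.23 and -0.14. The ACTB difference, however, fell in the order a, c, b in both groups. It was 1.41, 0.91 and 0.72 on the siKDM1A arrays and 1.43, 1.22 and 0.86 on the mock arrays. The count with the letters as block is given above. Over all probe sets, 63.1% of the calls were lower, 70.0% after median centring and 54.8% after cyclic loess. No detection calls or scans were used, so what the dim probe sets measure is limited.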

Other observations

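The 3 noncoding genes that share the family's symbols, TNFRSF10A-DT, TNFRSF10B-AS1 and TNFRSF14-AS1, had 6 probe sets with log2 fold changes between -0.10 and 0.20, and 0 was called by limma (lowest adjusted p = 0.33). Of 14 neural and medulloblastoma marker genes measured, 1 rose (7.14%, against 3.45% of all named genes), 3 fell (against 5.46%) and 10 were not called by limma. MAP2, a microtubule-associated protein of neurons, rose on 1 of 2 probe sets, by 1.12 on the log2 scale (adjusted p = 0.0003, limma). The transcription factors ZIC1, ZIC2 and SOX2 fell by 0.39, 0.40 and 0.43 on the log2 scale (adjusted p = 0.026, 0.042 and 0.048, limma), ZIC1 on 1 of 3 probe sets and SOX2 on 1 of 4. The 10 not called had log2 fold changes between -0.19 (TUBB3) and 0.21 (GLI1). Among them the neuronal gene SYP had -0.03, and the progenitor genes PAX6 and NES had 0.12 and 0.08. OTX2, PAX6, GLI2 and SYP lay below the median of every array.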
